A study of Mus musculus with 6 samples.

Results

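Splice isoforms that StringTie assembled from the reads, and that share at least 1 splice junction with a RefSeq transcript but not its whole chain of introns, were examined in the ovaries of E15.5 mouse embryos. They were chosen as all transcripts with the StringTie class code j, whatever their level, and comprised 4190 of the 114412 transcripts counted. They belonged to 2352 gene names, of which 1507 carried 1 such isoform, 445 carried 2, 184 carried 3 and 216 carried 4 or more. The transcripts of class =, whose introns match a RefSeq transcript, numbered 106481.

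The RNA came from C57BL/6J embryos whose mothers were exposed from E6.5 to E15.5 to panobinostat (PB), an inhibitor of histone deacetylases, given by oral gavage at 5 mg/kg, or to its vehicle of DMSO and water. The dose is given per day in the sample annotation and on alternate days in the study's methods. Each group comprised 3 replicates, and each replicate was a pool of ovaries, of 4 according to the extraction protocol, 6 to 8 according to the design text and at least 8 according to the RNA-seq methods. Whole ovaries were pooled, so fewer cells of a type and less RNA per cell cannot be told apart.

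A gene can give several mature RNAs, because the spliceosome can use other donor (5′) and acceptor (3′) sites, include or skip an exon, or start and end the RNA at other exons. Most introns begin with GT and end with AG, and a few begin with GC or use AT and AC. An assembler infers such isoforms from reads that span junctions, and then divides the reads of a locus among isoforms that overlap along most of their length.

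Junctions of some called isoforms are printed here as 15 bases before the junction in lower case and 15 bases after it in capitals. They follow the direction of transcription and were read from GENCODE transcripts on the same build (mm10). The first set comprises isoforms whose share of the counts of their gene was called, in a test whose limits are given below. Their new intron had the canonical GT and AG where its ends could be read, in Man2a2, Wdr91 and Sirpa. The isoforms of Wdr91 and Sirpa had no counts in any PB pool and passed the filter only through the control pools. The whole intron chain of the Sirpa isoform was present in GENCODE. The ends of the new introns of Rffl and Tefm lay outside the exons that could be read.
Rffl, intron chr11:82834280-82871007, minus strand: cagcgtccgcggcagCTGCGGTGTGGTGCT
Tefm, intron chr11:80140571-80142076, minus strand: tcatcaaggccggagAGTTTCACTGTGCAG
Man2a2, intron chr7:80370930-80371106, minus strand: gcggaggccggccgcCTCCGCCCTCTTTGG
Wdr91, intron chr6:34876772-34877675, minus strand: gtcactcactggatgGCATTGAAGATCGGC
Sirpa, intron chr2:129593005-129593603, plus strand: agtttgcgcaaagtgCCGCGGCCCATGGAG

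The second set comprises isoforms of the same kind of result whose new intron lay within a RefSeq exon or had no canonical ends. Also of this kind, but not printed, were Hdhd2 with GT and AG, and Timm10b and Gpc1 with CT and AC. The isoforms of Hmgcs1, Soat1 and Mxd4 had no counts in control, and that of Kctd14 had none in PB. They passed the filter only through the other group. The ends were AA and GA in Hmgcs1, CC and AT in Paxip1, AG and GG in Kctd14, AA and TC in Soat1 and GT and GA in Mxd4.
Hmgcs1, intron chr13:119706828-119706901, plus strand: tagtgtccaatttttAAAAAAACTTTTCTA
Paxip1, intron chr5:27742500-27744110, minus strand: gactatgaatcatatAAATTTAACTGATGG
Kctd14, intron chr7:97458514-97458544, plus strand: agaaaagaaaagaaaAGGAAGGAAGGAAGG
Soat1, intron chr1:156428557-156430035, minus strand: tttttttttttttttTTTTTTTTTTTTTTT
Mxd4, intron chr5:34176485-34176589, minus strand: tcccaagagaaaggaAGGAAGGAAGGAAGG
The Kctd14, Soat1 and Mxd4 junctions lay in repeats of a few bases or of 1 base. The intron of Kctd14 was only 31 bases long.

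The deposited counts summed to between 97165644 and 125985399 per pool. Markers of germ cells, pregranulosa, endothelium, macrophages and mesothelium were present in each pool, and none of the 9 marker lists held a gene at or under 3 counts throughout or a called gene. The summed level of 5 red blood cell markers ranged from 10614 to 27406 CPM (counts scaled to the library total after TMM normalization) in the control pools and from 16046 to 17075 CPM in the PB pools. The summed level of 5 mesothelial markers ranged from 249 to 326 CPM in the control pools and from 330 to 406 CPM in the PB pools, without overlap, and its part in the results was not tested.

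Class j isoforms were longer than the average RefSeq transcript, but shorter than the RefSeq transcripts of their own genes. Their median was 11 exons and 3784 bases of exon, against 8 exons and 2664 bases for class = and 15 exons and 4274 bases for the 14935 class = transcripts of the same genes. Of their 58437 junctions, 4006 (6.86%) were not in RefSeq. These corresponded to 3271 distinct junctions, of which 793 (24.2%) were present in GENCODE release 21, where 79.8% of the RefSeq junctions were also found. The whole intron chain of 348 isoforms (8.31%) was present in GENCODE.

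The change against RefSeq was most often a new combination of known junctions, seen in 1068 isoforms (25.5%). A new acceptor site occurred in 994, a new donor site in 859 and a new first exon in 808. An intron inside a RefSeq exon occurred in 582, exon skipping in 357, a new last exon in 320, a new internal exon in 275, an exon that spanned a RefSeq intron in 177 and a new pairing of known sites in 51. An isoform could have several of these, and 3090 had exactly 1. The new combinations were the most abundant kind, with a median of 12.2 CPM and 18.2% of the counts of their gene, whereas isoforms with a new last exon had a median of 3.04 CPM and 7.48%.

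**Figure D1:**
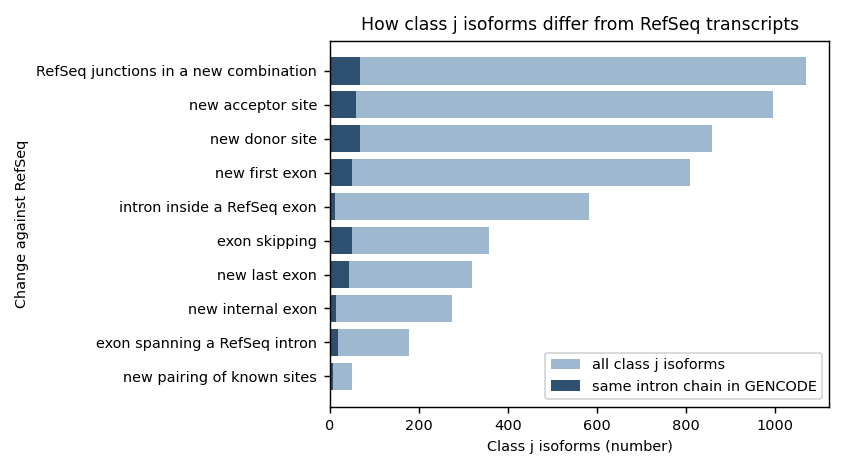
Number of class j isoforms (x axis) with each kind of change against RefSeq (y axis); an isoform can be counted in several bars, and the dark part shows those whose whole intron chain is in GENCODE. The bar for RefSeq junctions in a new combination reaches 1068, with 67 in GENCODE, and only 11 of the 582 isoforms with an intron inside an exon were in GENCODE.

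Some new splice sites lay close to a known one. Of 703 distinct junctions with a new acceptor, 236 used a RefSeq donor and an acceptor within 60 bases of the RefSeq acceptor. Their offset was 3 bases in 70 (29.7%), downstream in 55 and upstream in 15, and it was a multiple of 3 in 142 (60.2%). Of 1009 distinct junctions with a new donor, 142 lay within 60 bases of the RefSeq donor, and their offset was a multiple of 3 in 47 (33.1%). A multiple of 3 leaves the reading frame unchanged where the site lies in coding sequence. Of the 295 exon-skipping junctions, 169 skipped a single exon of 1 annotated form, with a median length of 101 bases, and 71 of these exons (42.0%) had a length that was a multiple of 3.

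Introns found inside a RefSeq exon were mostly short, and many had other than canonical ends. The 548 distinct junctions of this kind had a median length of 78.5 bases, against 2381 bases for the other new junctions, and 161 of them were shorter than 50 bases. Both ends could be read for 498, of which 159 (31.9%) had GT and AG, 12 (2.41%) had GC and AG or AT and AC, 89 (17.9%) had CT and AC, which is GT and AG read from the opposite strand, and 238 (47.8%) had other ends. GT and AG were found in 127 of 134 readable new donors (94.8%), 109 of 119 new acceptors (91.6%) and 22 of 23 exon-skipping junctions (95.7%). A new donor or acceptor is paired with a RefSeq site, and exon skipping uses RefSeq sites at both ends. The ends of those kinds were therefore partly or wholly set by definition. The like comparison is with the 671 junctions with both sites new outside a single exon. Of these, 171 could be read, and 84 (49.1%) had GT and AG while 36 (21.1%) had CT and AC.

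**Figure D2:**
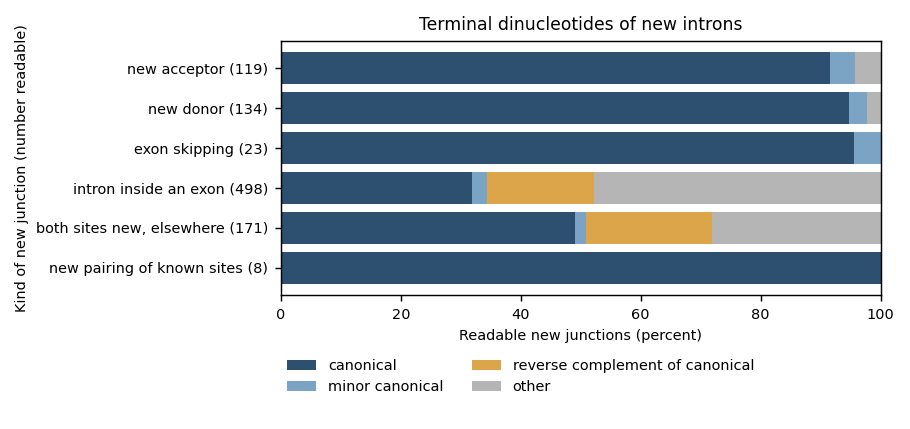
Percent of readable new junctions (x axis) by the terminal dinucleotides of the intron, for each kind of new junction (y axis, number readable in brackets); canonical is GT and AG, minor canonical is GC and AG or AT and AC. Canonical ends fill 94.8% of the bar for new donors but 31.9% of the bar for introns inside an exon. New donors are paired with a RefSeq acceptor, so this difference lies partly in the definition of the kinds.

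Simple sequence was also more frequent there. A junction was called simple where its 30 printed bases held at most 14 different runs of 3 bases out of a possible 28. That applied to 71 of 500 introns inside an exon (14.2%), against 15 of 301 junctions with both sites new elsewhere (4.98%). It applied to 4 of 523 new donors (0.765%) and 9 of 472 new acceptors (1.91%). Among introns inside an exon it applied to 57 of 237 (24.1%) with other ends and to 7 of 157 (4.46%) with GT and AG. These ends were not readable for every junction, because they were read from GENCODE exons only.

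Of the distinct new junctions, 87 had an intron of the same length as a RefSeq intron, moved by the same number of bases at both ends. The move was at most 5 bases in 76, and all 87 are also counted under the kinds above. Both flanks could be read for 39 of them. In 26 the spliced RNA was then the same, base for base, as that of the RefSeq junction, and in 13 it was not. Such junctions occurred in 156 isoforms and were the only new junctions of 131. The Paxip1 junction printed above was of this kind, since it lay 4 bases downstream of a RefSeq junction at both ends and gave the same spliced sequence. It was also counted above as an intron inside an exon with other ends.

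The class j isoforms held 7.28%, 7.39% and 7.21% of all counts in control pools 1, 2 and 3, and 7.39%, 7.25% and 7.88% in PB pools 1, 2 and 3. The groups overlapped, and their means of 7.29% ± 0.0885 and 7.51% ± 0.330 (SD, n = 3) did not differ beyond the spread of the pools (difference 0.216 percentage points, exact permutation test, two-sided, p = 0.4; the smallest p possible with 3 against 3 is 0.1). The difference was 0.0295 without PB pool 3. Counting only the isoforms that passed the filter on low counts gave 6.44% to 6.48% in control and 6.71% to 7.28% in PB, a difference of 0.476 with no overlap (exact permutation test, p = 0.1). Isoforms of globin genes held 0.410% to 0.918% of the counts of a pool, and without globin genes the shares ranged from 6.68% to 6.91% in control and from 6.86% to 7.41% in PB (exact permutation test, p = 0.2).

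Class j isoforms were a minor part of most of their genes. The median isoform had 6.26 CPM (quartiles 2.24 and 16.7) and held 11.2% of the counts of its gene (quartiles 3.95% and 27.9%). Together, the class j isoforms of a gene held a median of 27.5% of its counts. They held over 50% in all 6 pools in 411 genes and over 90% in 110. The most highly expressed of these 110 was Nedd4, which encodes a ubiquitin ligase, at 99.89% to 99.97%, followed by Sptan1 (spectrin alpha, 98.5% to 99.8%), Glg1 (92.7% to 95.5%) and Eif3a (a subunit of translation initiation factor 3, 99.2% to 99.5%). Rpl23a, a ribosomal protein gene, had no counts on other transcripts except in control 3, where class j held 99.98%.

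Of the 10 isoforms with the highest CPM, 5 belonged to globin genes, which red blood cells transcribe at high levels, and the others to Peak1, Nedd4 and Rps9. MSTRG.18732.7 of Peak1, which encodes a pseudokinase, headed the list with 278140, 0 and 284409 counts in control and 0, 0 and 136311 in PB. Its new introns included an intron of only 27 bases. Per kilobase of exon, the 5 highest were all globin isoforms. The highest per kilobase was MSTRG.2312.3 of Hba-a2 at 1627 CPM per kb, with 69727, 178437 and 46199 counts in control and 153871, 118552 and 142880 in PB. MSTRG.16769.2, which joins Hbb-bs and Hbb-bt, had 281592 and 472692 counts in control 1 and 2 and 0 in the other 4 pools. The globin genes are near-identical copies, so the division of reads between them is uncertain. The most even of the 10 was MSTRG.15788.3 of Rps9, a ribosomal protein gene, with 79772, 92266 and 65883 counts in control, 72283, 80694 and 85172 in PB, and 74.6% of the counts of the gene.

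Alternation between pools of a group was common. Nedd4 showed it most plainly. Its isoform MSTRG.18932.3 had 165579, 0 and 162391 counts in control and 0, 193295 and 0 in PB, whereas MSTRG.18932.1 had 309, 194009 and 382 counts in control and 174571, 534 and 202435 in PB. Each pool thus held nearly all of its Nedd4 counts on 1 of the 2 isoforms, and neither isoform followed the exposure. The isoforms shared 27 introns and differed by an exon of 86 bases, which MSTRG.18932.1 includes, and by the acceptor that follows it.

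Such switching was more frequent in class j than in class =. Of 3279 class j isoforms that passed the filter on low counts, 734 (22.4%) had 3 counts or fewer in 1 pool and 100 or more in another pool of the same group, against 6714 of 44660 (15.03%) in class =. The median coefficient of variation within a group was 53.0% and 43.4%, respectively. Of 4052 class j isoforms with 100 counts in some pool, 1791 had as many in all 6 pools, and 474 (11.7%) were at or under 3 counts in the other 5 pools, which applied to 1637 of 39186 (4.18%) in class =. Between 63 and 92 class j isoforms were private to each pool in this way. These percentages are a description, since transcripts of a gene share their reads.

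To test for an effect of PB, the quasi-likelihood test of edgeR was applied to the 51227 transcripts of any class with sufficient counts. Calls required a change of 2-fold or more at an FDR no higher than 0.05. All classes together gave 17 calls (0.0332%). Of the 3279 class j isoforms tested, 3 were called (0.0915%), 2 higher and 1 lower in PB. The remaining 911 isoforms had too few counts to be tested. An unadjusted p-value under 0.05 was found for 155 class j isoforms (4.73%) and for 3.56% of all transcripts. Leaving out a pool gave 182 to 268 such class j isoforms, the most without PB 2, of 3492 to 3499 tested. The percentage over all transcripts in those fits was not computed. The median log2 fold change was 0.04 in class j and 0.01 over all transcripts.

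The called isoform that fell was MSTRG.2960.6 of Rffl, which encodes a RING-type ubiquitin ligase. It had 2006, 2480 and 1815 counts in control and 9, 13 and 14 in PB, so the groups lay far apart. The log2 fold change was −7.47 ± 0.24 (SE, edgeR FDR = 0.00792). In this isoform, an exon of 199 bases took the place of an exon of 144 bases in the RefSeq transcript XM_006533987.2, through the junction printed above, which skips 2 RefSeq exons. Its percentage of the Rffl counts was 74.4, 74.3 and 66.9 in control pools and 0.380, 0.506 and 0.504 in PB pools. XM_006533987.2 held 85.0% and 71.2% in PB 1 and 2 but 1.12% in PB 3, where NM_001007465.3 held 62.5%. The sum over Rffl changed little (log2 fold change −0.22, edgeR FDR = 0.888).

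The 2 called isoforms that rose were of Paxip1 and Hmgcs1. Paxip1 encodes an adaptor protein of the DNA damage response. Its isoform MSTRG.13658.2 had 223, 256 and 205 counts in control and 2227, 2757 and 2679 in PB (log2 fold change 3.45 ± 0.14, edgeR FDR = 0.0133). The other class j isoform of the gene, MSTRG.13658.3, had 2886, 3870 and 2918 counts in control and 615, 856 and 348 in PB. Both carried the shifted junction described above, shared 18 introns and differed in an exon of 64 bases, which MSTRG.13658.2 includes, and in the donor before it. The 2 isoforms exchanged places, since MSTRG.13658.2 held 5.42% to 6.04% of the counts of Paxip1 in control and 59.3% to 69.9% in PB, while MSTRG.13658.3 held 78.1% to 81.9% and 9.07% to 19.6%.

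Hmgcs1 encodes the cytosolic HMG-CoA synthase of cholesterol synthesis. Its isoform MSTRG.5265.3 had 0 counts in each control pool and 8901, 7941 and 8817 in PB. With a floor of 3 counts per library, its mean CPM in PB was 2768-fold the mean floor of the control pools (edgeR FDR = 0.0207). Its intron chain was that of NM_001291439.1 plus the 74-base intron with ends AA and GA. In PB it made up 57.0%, 48.2% and 48.2% of Hmgcs1. The RefSeq transcript XM_006517578.1 made up 79.4%, 75.5% and 75.4% in control pools and 33.6%, 43.3% and 47.2% in PB pools. The sum over the gene was lower in PB (log2 fold change −0.44, edgeR FDR = 0.0377), below a 2-fold change.

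These 3 calls were mostly lost when any 1 pool was left out, in fits with fewer pools. Leaving out 1 pool at a time gave 0 calls without control 1, control 3 or PB 1, 5 without control 2, 3 without PB 2 and 1 without PB 3. Rffl was called again without control 2 and without PB 2 (edgeR FDR 0.0375 to 0.0636 over the 6 fits), Hmgcs1 only without control 2 (0.0438 to 0.119) and Paxip1 in none (0.0582 to 0.119). The direction and size of the 3 values remained, between −7.57 and −7.34 for Rffl, 3.37 and 3.50 for Paxip1 and 15.99 and 16.09 for Hmgcs1 on the fitted log2 scale. DESeq2's Wald test called 128 of 3179 class j isoforms with an adjusted p-value (4.03%), 60 higher and 68 lower, against 1.84% of the transcripts of all classes. In 55 of these 128, a pool of the higher group was itself at or under 3 counts.

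No overlap between the 3 control and 3 PB values was found for 343 of the tested class j isoforms (10.5%), against 9.95% of all tested transcripts. Among them, the 6 of lowest p-value either way were, besides the 3 above, Hdhd2, Man2a2, Hnrnpa1 MSTRG.6782.2 and Usp9x, a deubiquitinase gene, among those higher in PB, and Abcc5, Wdr91, Hnrnpa1 MSTRG.6782.4, Heatr5a and Timm10b among those lower. Their FDR lay between 0.0570 and 0.283. The Usp9x isoform MSTRG.19509.4 showed the smallest difference, with 11248, 12490 and 13303 counts in control and 21925, 20784 and 23364 in PB (log2 fold change 0.79 ± 0.12, edgeR FDR = 0.283).

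The share of an isoform in the counts of its gene does not depend on the level of the gene. With limma on the log2 odds of this share, and thresholds of a log2 odds change of 1 and an FDR of 0.05, 23 of 3253 class j isoforms (0.707%) in 22 genes were called, 7 higher and 16 lower in PB. Over all classes, 227 of 41496 transcripts (0.547%) were called. The 3 isoforms called above were among the 23. No gene sum of these 22 genes was called, and their log2 fold changes lay between −0.44 and 0.34.

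**Figure D3:**
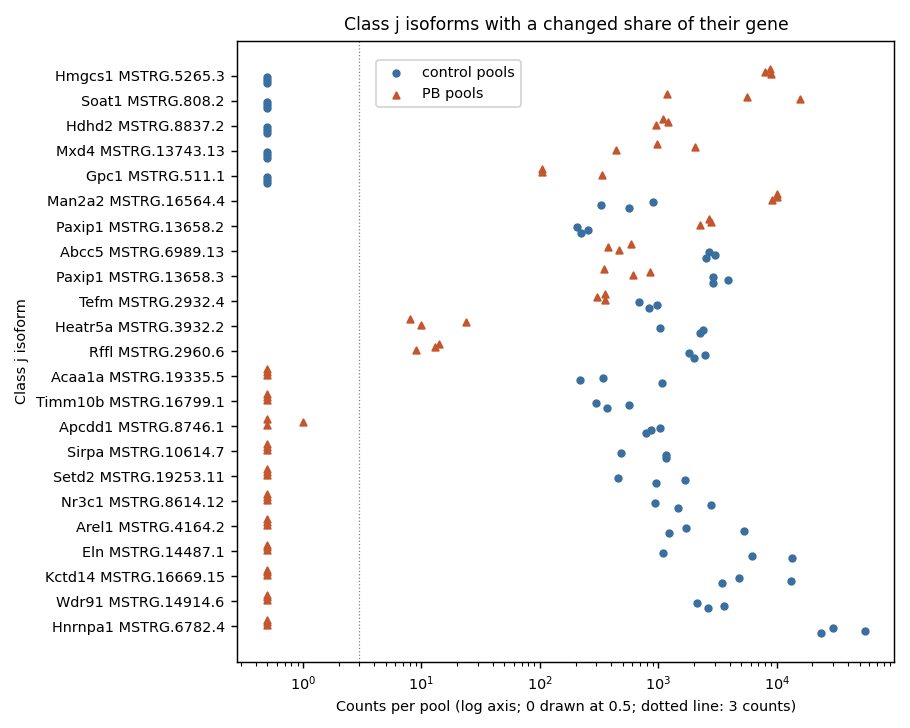
Counts in each of the 3 control (circles) and 3 PB pools (triangles), on a log axis, of the 23 class j isoforms with a changed share of their gene (y axis); a count of 0 is drawn at 0.5. In 11 isoforms, at the bottom, the PB pools lie at or under 3 counts, and in 5, at the top, the control pools do.

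In 16 of the 23, all pools of a group were at or under 3 counts, the PB pools in 11 and the control pools in 5. These 16 passed the filter only through the group where they were high, and the group near 0 has almost no spread on the log odds scale. In simulated data the share test made more false calls than its FDR allows. Among the 11 were isoforms of Hnrnpa1, which encodes an RNA-binding splicing regulator, Eln (elastin), Setd2 (the methyltransferase of histone H3 lysine 36), Nr3c1 (the glucocorticoid receptor), Sirpa (a receptor for CD47), Apcdd1 (an inhibitor of WNT signalling) and Wdr91, which acts in endosomes. The other 4 were of Kctd14, Arel1, Acaa1a and Timm10b. Such isoforms, at or under 3 counts in one group and at 100 or more in all pools of the other, numbered 17 of 3279 (0.518%) in class j and made up 0.176% of all tested transcripts. Nothing is read from these percentages, since such isoforms passed the filter through 1 group and class j isoforms also reached near 0 more often within a group, as given above. The seventeenth was MSTRG.518.8 of Kif1a, a kinesin motor gene, with 0 counts in control and 2101, 206 and 2643 in PB, which was not called.

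Levels in the higher group were uneven in some of these. The Eln isoform MSTRG.14487.1 had 13408, 6169 and 1096 counts in control and 0 in PB, and the Kctd14 isoform MSTRG.16669.15 had 3449, 13065 and 4788 in control and 0 in PB. The Nr3c1 isoform MSTRG.8614.12 had 1464, 2788 and 929 counts in control, the Setd2 isoform MSTRG.19253.11 had 960, 1687 and 455 and the Sirpa isoform MSTRG.10614.7 had 1168, 1160 and 484, and all were at 0 in PB. More even was that of Apcdd1, MSTRG.8746.1, with 791, 870 and 1034 counts in control and 0, 1 and 0 in PB. Heatr5a MSTRG.3932.2, with 2268, 2394 and 1036 counts in control, was not wholly absent in PB, where it had 10, 24 and 8.

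Absence of an isoform did not mean absence of the gene. Hnrnpa1 MSTRG.6782.4 had 23400, 55021 and 29562 counts in control and 0 in each PB pool. Its mean CPM in control was 11970-fold the mean floor of the PB pools. MSTRG.6782.2 of the same gene had 2035, 5788 and 5660 counts in control and 38911, 64498 and 45134 in PB (share test, FDR = 0.0739). They shared 9 introns, and the introns that told them apart, of 356 and 361 bases, began at the same base. The class j isoforms of Hnrnpa1 together held 73.9% ± 8.23 of its counts in control and 77.8% ± 7.81 in PB.

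Wdr91 showed the same kind of exchange. MSTRG.14914.6 had 2632, 3580 and 2128 counts in control and 0 in PB. Its mean CPM in control was 936-fold the mean floor of the PB pools. It was also a read-through isoform, since no single gene name covered all of its known junctions. In PB 2, 72.6% of the counts were on MSTRG.14914.5, which had 0 counts in the other 5 pools, and in PB 1 and 3, MSTRG.14914.1 held 32.0% and 39.7%. The introns that differed were 904, 1036 and 1128 bases long and shared their acceptor. The class j isoforms of Wdr91 together held 74.4% ± 6.19 in control and 67.0% ± 13.9 in PB.

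Of the 5 isoforms at 0 in control, some had uneven levels in PB and others did not. Soat1, which encodes a cholesterol acyltransferase, had 15723, 5579 and 1188 counts of MSTRG.808.2 in PB, and this was the isoform with the junction in a run of T printed above. Mxd4, a MYC antagonist gene, had 441, 2026 and 974 counts of MSTRG.13743.13. The Gpc1 isoform had 336, 104 and 104, and the Hdhd2 isoform 954, 1200 and 1097. All 12 alternatives to the share test kept the direction of the 23 changes. Leaving out a pool at a time gave 23 to 37 calls, with 35 without control 2 and 37 without PB 3, and 15 to 18 of the 23 were called again each time. In all 6 such fits 13 of the 23 were called, and the isoforms of Tefm and Abcc5 in none.

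Among isoforms with an intron inside an exon, 1 of 125 in the share test with ends GT and AG was called, 0 of 81 with CT and AC, and 5 of 79 with other ends, where 0.547% of all transcripts and 0.707% of class j isoforms were called. The 5 were Hmgcs1, Soat1, Kctd14 and both Paxip1 isoforms, which carry the same junction and moved in opposite directions. These names were given after their values were seen. The isoforms of Hmgcs1, Soat1 and Kctd14 were at 0 in all pools of a group and passed the filter only through the other group. Nothing is therefore read from these counts by kind of end.

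At the level of the gene, the summed share of class j isoforms changed in 10 of 1989 genes tested (0.503%, limma), rising in 5 and falling in 5. All genes in this test carry class j isoforms, so the percentage is their own background. The genes that rose were Hmgcs1, Man2a2, Scyl2, Xlr4a and a gene listed as Sep-05, a symbol altered into a date, whose RefSeq transcript NM_213614.2 is that of Septin5. The genes that fell were Rffl, Tefm, Abcc5, Cflar and Tcp11l2.

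**Figure D4:**
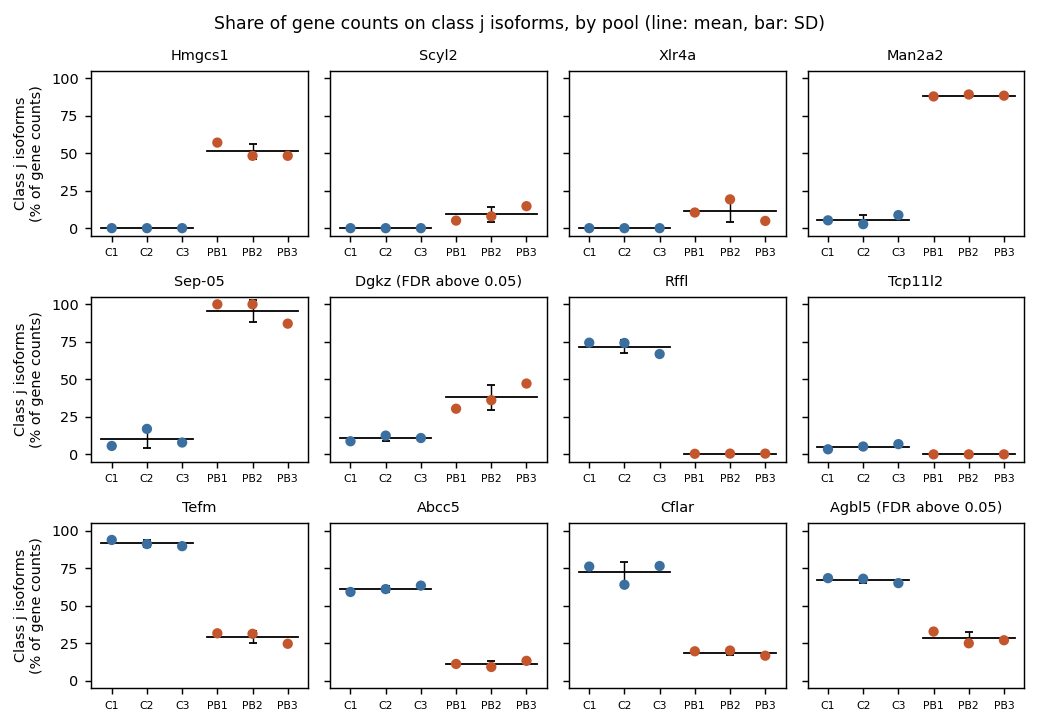
Percent of the counts of a gene on its class j isoforms (y axis) in control pools (C1 to C3, blue) and PB pools (PB1 to PB3, orange), for the 6 genes of lowest p-value either way; lines are means and bars SD over 3 pools. Man2a2 moves from 5.52% to 88.4%, and Tefm from 91.4% to 29.1%.

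Man2a2, a Golgi mannosidase gene of N-glycan processing, was among the genes that rose. Its class j isoform, MSTRG.16564.4, made up 5.21%, 2.66% and 8.70% of Man2a2 in control pools and 87.8%, 89.1% and 88.3% in PB pools, with no overlap and little spread (log2 odds change 7.19 ± 0.52, limma FDR = 0.0109). Its new intron began 5 bases upstream of the RefSeq donor, at the junction printed above. XM_006540600.3, a shorter RefSeq transcript of 14 exons, held 47.5% to 52.2% in control and at most 0.262% in PB. Summed over Man2a2, the log2 fold change was −0.05.

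Tefm, which encodes the elongation factor of mitochondrial transcription, moved the other way. MSTRG.2932.4 made up 93.7%, 91.0% and 89.6% of Tefm in control pools and 31.5%, 31.2% and 24.5% in PB pools (log2 odds change −4.73 ± 0.35, limma FDR = 0.0109). The RefSeq transcript NM_183275.2 rose from 7, 11 and 11 counts to 759, 631 and 1035. Its intron was 1753 bases long and that of the class j isoform 1506, with the same donor, and this junction was present in GENCODE. Abcc5, a membrane transporter gene, fell from 61.1% ± 2.12 to 11.1% ± 2.04 (limma FDR = 0.0130), through an isoform made of RefSeq junctions in a new combination. The genes next in order, Dgkz (10.7% ± 1.90 to 37.9% ± 8.53) and Agbl5 (67.0% ± 1.81 to 28.1% ± 4.06), did not overlap between groups but had limma FDRs of 0.297 and 0.0701.

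**Figure D5:**
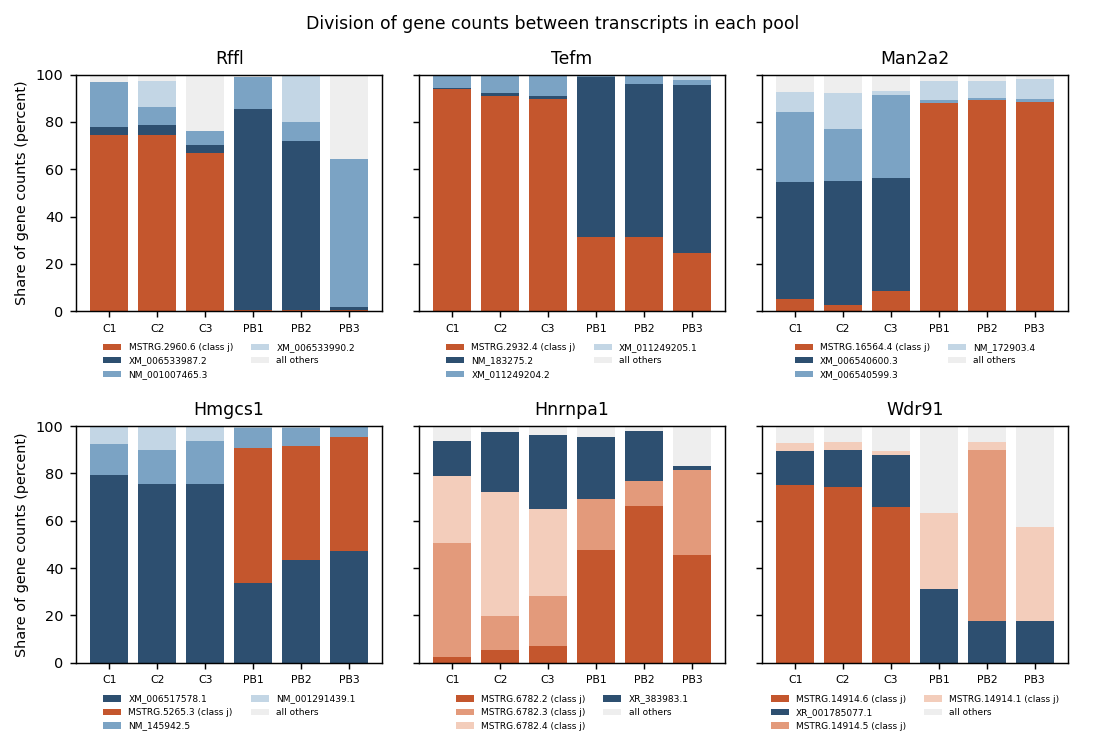
Division of the counts of 6 genes between their 4 most abundant transcripts and all others (y axis, percent of gene counts) in each pool (x axis); class j isoforms are in orange shades and RefSeq transcripts in blue shades. The class j isoform of Rffl and Tefm takes a smaller share in PB and that of Man2a2 and Hmgcs1 a larger one, whereas in Hnrnpa1 and Wdr91 one class j isoform gives way to others.

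In some of the 10 genes the class j counts of a group lay on different isoforms in different pools. In Xlr4a, of an X-linked family of close copies, the 440 class j counts of PB 1 were on 1 isoform, the 392 of PB 2 on 2 others and the 242 of PB 3 on another, and each was at 0 in all other pools. In Tcp11l2, the 84, 169 and 153 class j counts of the control pools were on 3 different isoforms. In Scyl2, which acts in clathrin-mediated traffic, MSTRG.1811.4 had 459 and 734 counts in PB 1 and 2, and MSTRG.1811.1 had 1667 in PB 3. In Cflar, which encodes the caspase inhibitor c-FLIP, the class j share was 76.0%, 63.9% and 76.4% in control and 19.5%, 20.0% and 16.6% in PB. MSTRG.262.3 was present in all pools, with 181, 2533 and 731 counts in control and 1351, 1426 and 1217 in PB, and was not called (log2 fold change 0.28). The others differed between the control pools, since MSTRG.262.4 had 4907 counts in control 1 and none in control 2 and 3, MSTRG.262.5 had 2457 and 1658 in control 2 and 3, and MSTRG.262.13 had 2232 in control 3. In PB these 3 had 0 counts, except for 13 of MSTRG.262.4 in PB 3.

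For the gene listed as Sep-05, counts were low in PB. The gene had 1622, 1785 and 1445 counts in control and 2, 2 and 101 in PB, of which 2, 2 and 88 were class j, so its shares in PB 1 and 2 rest on 2 counts each. Its sum was not called (log2 fold change −5.64, edgeR FDR = 0.888). A transcript of the same locus under the name Gp1bb, MSTRG.6979.1, had 169, 132 and 301 counts in control and 1186, 1984 and 1717 in PB (edgeR FDR = 0.349). 

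The gene calls varied with the setting. With precision weights, Rffl, Abcc5, Cflar and Man2a2 were called, 4 of the 10 genes, and Hmgcs1 and Tefm (limma FDR = 0.0558 each), Tcp11l2 (0.336), Scyl2 (0.749), Xlr4a and Sep-05 (0.794 each) were not. Leaving out 1 pool gave between 6 calls, without control 1, and 17, without control 3. Hmgcs1, Rffl, Scyl2 and Tcp11l2 were called in all 6 leave-one-out fits, and Xlr4a in all but the fit without control 1 (limma FDR = 0.0590). Man2a2 was lost without control 1, PB 1 or PB 2 (limma FDR 0.0142 to 0.0650 over the 6 fits), and Tefm without control 1, control 2, PB 1 or PB 2 (0.0347 to 0.0590). Abcc5 was called only without PB 3 (0.0376 to 0.0705), and Cflar (0.0364 to 0.165) and Sep-05 (0.0151 to 0.136) only without control 2.

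The levels of the genes were tested as gene sums, with another test than the shares. In the limma share test, 65 of 1989 genes (3.27%) had an unadjusted p-value under 0.05. Of 2351 genes with a class j isoform and enough counts, 0 were called as gene sums by edgeR, where all 19437 genes gave 3 calls (0.0154%). An unadjusted p-value under 0.05 was found by edgeR for 123 of them (5.23%, against 4.47% of all genes), and DESeq2 also called 0. Leaving out a pool gave 429 such genes without PB 2 and 81 to 95 in the other fits. The percentage over all genes in those fits was not computed, so nothing is read from the 429. Leaving out control 1, control 2, PB 2 or PB 3 gave 1 call each. Sparc, Npc2, Tspan14 and Spata2 carried no class j isoform.

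Genes of the tissue were described by lists. Of 22 germ cell genes, 5 had 7 class j isoforms, of which 4 were tested and 0 called. The most abundant was MSTRG.17451.1 of Tex15, a germ cell protein gene, with 1269, 2939 and 727 counts in control and 6084, 808 and 6100 in PB. The groups overlapped. Of 32 meiosis genes in the annotation, 9 had 16 class j isoforms, 14 tested and 0 called. Sycp1, which encodes the transverse filament of the synaptonemal complex, had an isoform with a new acceptor (MSTRG.11848.1), which had 4241, 4626 and 4221 counts in control, 7011, 2762 and 8072 in PB and 40.7% of the gene. Stra8, which marks meiotic entry, had an exon-skipping isoform, MSTRG.14915.3, with 2586, 2081 and 2862 counts in control and 2619, 1782 and 3612 in PB. The whole intron chains of these Sycp1 and Stra8 isoforms were present in GENCODE. MSTRG.7504.2 of Prdm9, which encodes the methyltransferase that places recombination hotspots, had 2135, 2741 and 0 counts in control and 3811, 1728 and 3392 in PB. Its only new junction was an intron of 84 bases inside a RefSeq exon, with ends CT and AC, and was absent from GENCODE.

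Of 18 pregranulosa and somatic genes, 5 had 10 class j isoforms, 7 tested and 0 called. The 3 most abundant were even between pools. MSTRG.5753.4 of Gata4, a transcription factor gene of the gonad, had 13518, 14939 and 11451 counts in control and 13518, 13250 and 13863 in PB (log2 fold change −0.005 ± 0.075). For Wt1, another transcription factor gene of the gonad, a pair of exon-skipping isoforms held 36.3% (MSTRG.10372.1) and 25.3% (MSTRG.10372.2) of its counts, with log2 fold changes of 0.09 and 0.03. The whole intron chains of both Wt1 isoforms were present in GENCODE.

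Among regulators, 11 of 26 HDAC and corepressor genes had 36 class j isoforms, 32 tested and 0 called. An unadjusted p-value under 0.05 was found for 1, MSTRG.15588.14 of Chd4, an ATPase of the NuRD corepressor complex, with 9646, 10067 and 8342 counts in control and 11382, 11378 and 14075 in PB (log2 fold change 0.35 ± 0.07, edgeR FDR = 0.608). Of 42 splicing factor genes, 16 had 37 class j isoforms, of which 27 were tested and 0 called by level. By its share 1 was called, Hnrnpa1 MSTRG.6782.4, where 0.547% of all transcripts were called. MSTRG.4873.7 of Hnrnpk alternated, with 24732, 59772 and 46063 counts in control and 0, 50410 and 0 in PB.

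Of 24 DNA repair genes, only Paxip1 and Huwe1 had class j isoforms, 6 in all. Both of Paxip1 were called by share and 1 by level, as given above. Over all classes, 0.547% of transcripts were called by share and 0.0332% by level. Paxip1 was picked for earlier results, and the study lists Paxip1 and Huwe1 among repair factors found in these RNA-seq data. Nothing is therefore read from these calls about the list. The 3 most abundant of Huwe1, a ubiquitin ligase gene, were new combinations of RefSeq junctions over 84 to 86 exons and were not called. Of 18 imprinted and noncoding genes, 5 had 18 class j isoforms, 17 tested and 0 called. MSTRG.17238.2 of Cdkn1c, a cell cycle inhibitor gene, held 62.4% of its counts, with 40582, 4724 and 38511 counts in control and 41740, 57778 and 51268 in PB. MSTRG.17215.3 of Igf2, a growth factor gene, had 0, 21193 and 0 counts in control and 14558, 25265 and 20370 in PB.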

How the data were processed

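Class codes, gene names and exons were taken from the deposited tables of 6 ovary libraries, and the class j members, gene lists and tests were chosen with earlier results of these data known. The authors prepared stranded polyA libraries, aligned paired reads to mm10 with HISAT2 2.1.0, used StringTie 1.3.5 with RefSeq for assembly and merging, and deposited counts per transcript made with prepDE from coverage, as whole numbers without normalization. StringTie divides reads among overlapping transcripts, so a transcript's count depends on that division. The columns of the authors' DESeq2 1.30.0 comparison (fold changes, p-values) and 6 columns of normalized values per pool were not used. Totals were 97165644 to 125985399 counts per pool; 3 counts, 0.0253 to 0.0311 CPM, were taken as the floor, which covers counting error only.

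Counts were tested with edgeR 4.0.16 (TMM, filterByExpr with a minimum count of 10 and total of 15, quasi-likelihood F-test) over all transcripts or over sums per gene name. Shares were tested with limma 3.58.1 on log2 odds with 0.5 added to each count, for genes with at least 10 counts of each kind in 3 pools. FDR is Benjamini-Hochberg over all features tested. Simulated data were used to check the scripts, and in them the share test made more false calls than its FDR allows. Alternatives were DESeq2 1.42.0, other filters, FDR limits, pseudocounts and groupings, precision weights, diffSpliceDGE, a replicate block and leaving out each pool; the share without globin genes was added after the data were seen. Junctions were compared with the RefSeq transcripts of the deposited annotation and with GENCODE M21 on the same build, whose transcripts gave the sequences. Isoforms were named if called, if among the smallest p-values without overlap, if among the highest in level, if at or under 3 counts in one group and at 100 or more in the other, or as members of lists; other names were given after their values were seen. Sparc, Npc2, Tspan14, Hmgcs1, Spata2 and Paxip1 were picked for earlier results. The design text describes the control libraries as exposed too; groups follow the sample titles and treatment entries. The annotation names no separate litters for the pools, so p-values measure the spread between these pools. No sequencing batch is named in the sources used here.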

Additional observations from a re-analysis of the deposited data

How the results depend on the processing

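The 3 class j isoforms called by edgeR became 7 at an FDR of 0.1, 6 with the stricter filter and 128 with DESeq2's Wald test, and 0 to 5 when a pool was left out; with DESeq2's size factors or without a filter there were 3. With precision weights, 4 genes instead of 10 had a changed class j share, and leaving out a pool gave 6 to 17. The 23 isoforms with a changed share became 13 with diffSpliceDGE, 10 of them among the 23, and 23 to 37 when a pool was left out. The gene sums gave 0 calls, and 0 to 1 when a pool was left out. The class j share of all counts differed by 0.476 percentage points, instead of 0.216, with filtered isoforms only, and by 0.0295 to 0.344 when a pool was left out. No change of direction was found among the 3 isoforms, 10 genes and 23 shares under these alternatives, where the same feature could be compared.

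Replicate numbers were shared by the groups, but deviations of same-numbered pools correlated by only −0.00909, 0.0189 and −0.00200 over transcripts and by 0.09996, 0.224 and 0.0357 over genes. With the replicate number as a block, 0 isoforms were called by level and 0 by share, 1 gene had a changed class j share, and 0 gene sums were called. The biological coefficient of variation estimated by edgeR was 98.4% for transcripts and 20.95% for gene sums, so smaller changes can be called in gene sums than in transcripts.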

Other observations

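A few genes were assembled into many class j isoforms. Among them were Ncor1 (18 of its 71 transcripts), a corepressor gene, Plagl1 (15 of 28), an imprinted zinc finger gene, and Ogfr and Ankhd1 (13 of 16 each). In Ncor1, class j isoforms held 74.6% to 86.7% of the counts in the 6 pools, and in Plagl1 47.2% to 59.8%. In Pbrm1, which encodes a chromatin remodelling subunit, 12 of 62 transcripts were of class j and held 67.2% to 71.0%.

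Known junctions of 2 or more genes were joined in 154 class j isoforms, 121 of which were tested. Of these, 0 were called by level and 1, MSTRG.14914.6 of Wdr91, by share, against 0.0332% and 0.547% of all transcripts. Outside the globin genes, the most abundant of these read-through isoforms was MSTRG.8304.3, which joined Thada and Zfp36l2 on chromosome 17, with 2319, 17221 and 14786 counts in control and 14870, 16325 and 4279 in PB. MSTRG.5651.7, which joined Ipo4 and Tm9sf1 on chromosome 14, was even, with 9864, 11068 and 9171 counts in control and 8627, 9960 and 10634 in PB, and held 97.5% of the counts listed under Ipo4. MSTRG.13135.2, which joined Dhdds and Hmgn2, had 11310, 20826 and 19 counts in control and 2066, 135 and 24491 in PB. Of the 2352 genes with a class j isoform, 7 had over 50% of their counts on such isoforms in each control pool and under 50% in each PB pool. In 6 genes the reverse was found. No like count was made for transcripts of other classes, so nothing is read from these numbers about PB.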
